A study of Rattus norvegicus with 12 samples.

Results

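Expression of 7 rat genes of cholesterol synthesis, its control and intracellular sterol transport was followed from normal liver through chemically induced hepatitis and cirrhosis to hepatocellular carcinoma (HCC). The genes were Srebf2, Mvk, Mvd, Sqle, Tm7sf2, Msmo1 and Stard4, 7 of 14217 genes measured. They were chosen by symbol, and all 12 probe sets annotated to exactly 1 of these symbols were taken. Sqle, Mvd, Msmo1 and Tm7sf2 had 1 probe set each, Srebf2 had 2, and Mvk and Stard4 had 3 each. The brightest probe set of each gene was tested, and the others are described beside it.

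Hepatocytes make cholesterol from acetyl-CoA by way of mevalonate, isoprenoids, squalene and lanosterol. The transcription factor SREBP2, encoded by Srebf2, is held in the endoplasmic reticulum while sterols are plentiful, and is cut free and moves to the nucleus when they are scarce. There it switches on most enzymes of the pathway together with genes of sterol uptake and transport. Mvk is mevalonate kinase and Mvd is mevalonate diphosphate decarboxylase, both on the way to isoprenoids. Sqle is squalene epoxidase, a rate-limiting enzyme of the sterol branch. Tm7sf2 is a sterol C14 reductase and Msmo1 a sterol C4 methyl oxidase, which act on the products of lanosterol. Stard4 carries cholesterol between membranes inside the cell, and its label as an uptake gene rests on that transport role.

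The samples came from adult male Sprague-Dawley rats, in 4 groups of 3 arrays. Rats of 3 groups had received the alkylating carcinogen diethylnitrosamine (DEN) intraperitoneally at 70 mg/kg once per week for 10 weeks, and control rats received distilled water. Tissue was taken at week 5 (hepatitis stage), weeks 13 to 14 (cirrhosis stage) and weeks 23 to 24 (HCC stage), counted from DEN treatment, and since it is not said whether from the first or the last injection, how many of the injections preceded the hepatitis samples remains unknown. No time is given for the controls, and 1 control group serves all stages, so stage and age cannot be told apart. The series design speaks of tumour tissue for the HCC group and of liver for the other groups, while the tissue label is liver throughout. All rats ate a semipurified basal diet, and the sources used here do not say whether they had been fasted. Whole tissue was measured, so that fewer cells of a type and less RNA per cell cannot be told apart. No label ties an array to its own animal, so the p-values reflect the spread among these 12 samples, which may be technical.

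Values were linear intensities on single-colour Rat 230 2.0 arrays with a median of 28.7 to 30.9 per array, and the number of arrays limits their precision. Hepatocyte plasma protein genes were bright in every group, with a list mean (log2, 9 genes) of 12.96 to 13.05 on the arrays of the first 3 groups and 11.92 to 12.85 in HCC. The HCC arrays stood apart on the first principal component (60.4% of the variance), at 73.3, 32.6 and 75.7 for replicates 1, 2 and 3 against -26.1 to -7.32 for the other 9. Their 3' minus 5' difference of the Gapdh control probe sets was 1.35, 2.43 and 3.14 (log2) on replicates 1, 2 and 3, against 0.38 to 1.02 on the others. Muscle actin Acta1 was at 1196 on control replicate 2 and at 7.21 to 34.2 on every other array, and the macrophage list mean was 9.57 on control replicate 3 against 8.60 and 8.37 on the other controls. Cholangiocyte markers had a list mean of 9.01 on HCC replicate 1 and 7.27 on hepatitis replicate 1, against a control median of 5.96. The part of these differences in the results below was not tested.

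Promoter sequence was held for 5 of the 7 genes, in windows of 250 bases before to 50 after the start site (RefSeq, GRCr8). Sqle and Stard4 had no window. All 5 held the NF-Y box CCAAT on either strand, 5 times in Mvk, 3 in Msmo1, 2 each in Mvd and Tm7sf2 and 1 in Srebf2, and 10 of 13 windows of other sterol enzymes held it. NF-Y is a factor known to act beside SREBP2. The box is common, being in 37.5% of 33469 windows of all genes and in 36.8% of the 13242 windows of genes on the array. All 5 also held the GC box GGGCGG, as did 55.7% of windows of genes on the array. The sterol regulatory element in the form TCACNCCAC was in none of the 5, nor in any of the 13 windows of other sterol enzymes, and in 1.07% of windows of genes on the array. That form was the one searched, and its lack says only that these letters are not in these windows. The related form ATCACCCCA, searched after the windows had been read, was in the Srebf2 window, its first base 157 bases before the start site, and in 0.106% of windows of genes on the array. This related form was in 0 of 13 windows of other sterol enzymes and in 0.245% of the 33469 windows of all genes. It was chosen with the windows known, so its rarity gives the match no weight. Matches of the 4 motifs did not overlap in the windows of the 5 genes. The windows of Srebf2 and of the 3 genes that passed between disease stages (Mvk, Mvd and Tm7sf2), chosen after their values were seen, follow 5' to 3' on the gene's strand, with CCAAT or its reverse complement and ATCACCCCA in capitals.
Srebf2, chr7:115543057-115543356, plus strand: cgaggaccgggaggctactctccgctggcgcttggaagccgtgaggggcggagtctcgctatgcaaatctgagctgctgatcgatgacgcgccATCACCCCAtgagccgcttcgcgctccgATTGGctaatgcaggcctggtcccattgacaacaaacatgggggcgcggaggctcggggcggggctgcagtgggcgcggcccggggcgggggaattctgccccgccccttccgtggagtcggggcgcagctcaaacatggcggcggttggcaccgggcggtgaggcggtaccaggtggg
Mvk, chr12:47819454-47819753, minus strand: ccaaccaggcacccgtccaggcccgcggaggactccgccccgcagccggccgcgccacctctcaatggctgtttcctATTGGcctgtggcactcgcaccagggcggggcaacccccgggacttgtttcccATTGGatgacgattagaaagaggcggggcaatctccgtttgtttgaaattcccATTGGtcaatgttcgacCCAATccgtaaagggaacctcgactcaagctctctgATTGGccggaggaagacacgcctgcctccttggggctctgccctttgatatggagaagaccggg
Mvd, chr19:67414925-67415224, minus strand: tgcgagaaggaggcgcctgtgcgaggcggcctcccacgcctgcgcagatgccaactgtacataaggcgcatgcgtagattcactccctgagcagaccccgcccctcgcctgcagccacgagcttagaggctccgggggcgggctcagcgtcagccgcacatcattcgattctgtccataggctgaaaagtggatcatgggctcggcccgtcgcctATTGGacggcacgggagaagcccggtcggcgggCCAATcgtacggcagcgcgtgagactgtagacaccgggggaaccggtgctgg
Tm7sf2, chr1:212789492-212789791, minus strand: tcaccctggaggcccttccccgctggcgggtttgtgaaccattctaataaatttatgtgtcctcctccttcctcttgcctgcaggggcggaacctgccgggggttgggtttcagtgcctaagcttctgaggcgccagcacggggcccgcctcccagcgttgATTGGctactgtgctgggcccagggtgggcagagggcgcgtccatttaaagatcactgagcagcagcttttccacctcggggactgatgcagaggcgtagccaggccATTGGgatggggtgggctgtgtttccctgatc

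All 7 genes were at their lowest or near it in hepatitis, closer to control in cirrhosis, and apart from each other in HCC. Group means in hepatitis were 25.3% (Sqle), 27.0% (Msmo1), 36.0% (Mvd), 41.4% (Tm7sf2), 50.4% (Stard4), 53.7% (Mvk) and 54.1% (Srebf2) of the control mean. In cirrhosis they were 60.2% (Mvd) to 87.5% (Mvk) of control for the 6 lower genes, and 123% for Tm7sf2. In HCC they ran from 29.6% for Tm7sf2 to 81.4% for Mvd. The moderated F test over the 4 groups gave each gene an adjusted p under the threshold of 0.05, from 0.00159 for Tm7sf2 to 0.0438 for Msmo1. The share of all genes that passed this F test was not counted, so it shows nothing particular to the 7. In HCC against control alone 5512 of 14217 genes passed in limma.

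**Figure D1:**
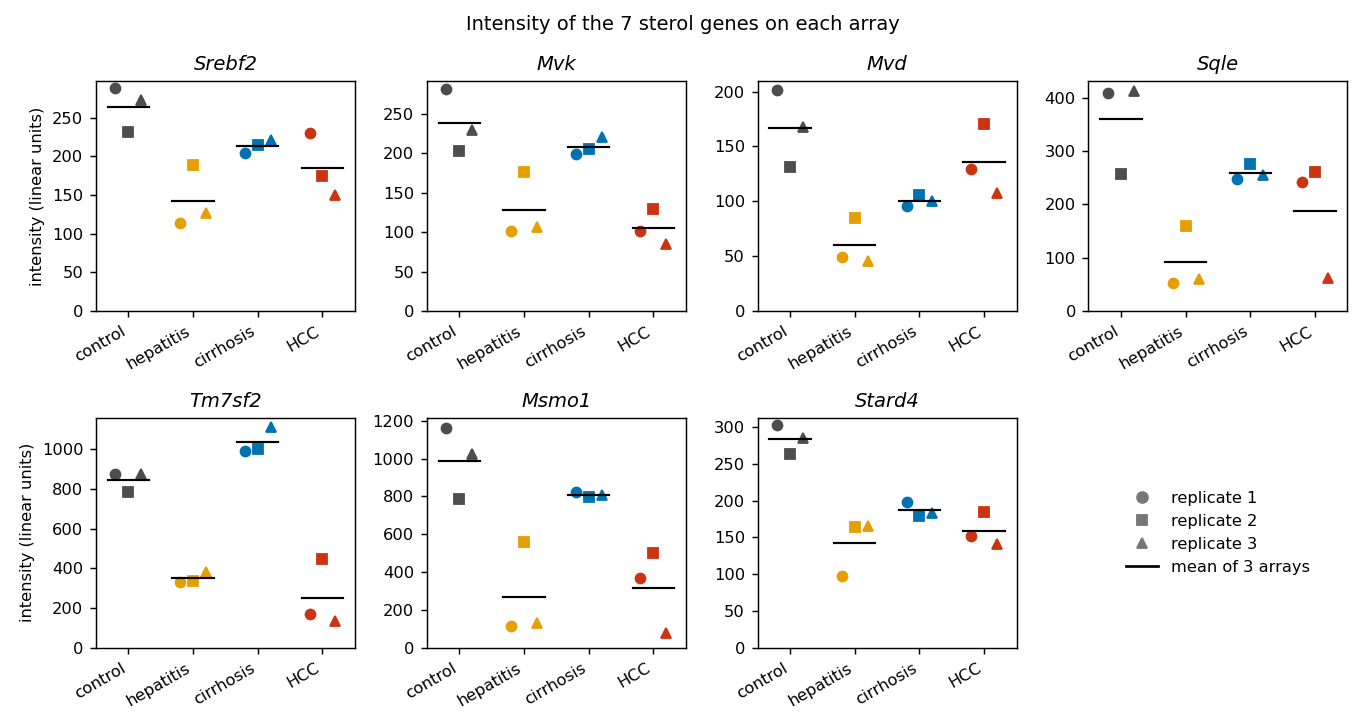
Intensity (linear units, vertical axis from 0) of the tested probe set of each gene on the 12 arrays, by group, with symbols for replicates 1 to 3 and a bar for the mean of 3 arrays. Every hepatitis value lies under every control value in all 7 panels, cirrhosis arrays lie close together, and HCC replicate 3 is the lowest HCC array in all 7.

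Srebf2, the regulator, had intensities of 288, 231 and 272 in control (264 ± 29.5, SD, n = 3) and 114, 188 and 126 in hepatitis (143 ± 39.8). All 3 hepatitis arrays lay below all 3 controls, and the difference was -0.84 ± 0.18 (log2, SE, limma adjusted p = 0.0324). Cirrhosis arrays read 204, 214 and 221, all below control, at a difference of -0.29 ± 0.18 (adjusted p = 0.524). HCC arrays read 230.2, 174 and 150.0 (185 ± 41.2). They too lay below every control, at -0.49 ± 0.18 (adjusted p = 0.0546), and they overlapped both other stages. The second Srebf2 probe set was dim, at 7.39 to 8.49 on all arrays, and carries no information on stage.

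Mvk, the kinase that phosphorylates mevalonate, read 281, 203 and 229 in control (238 ± 39.9) and 101, 176 and 107 in hepatitis (128 ± 41.5). Hepatitis replicate 2 was the high array of its group, and the groups did not overlap (-0.85 ± 0.20, adjusted p = 0.0462). The cirrhosis arrays, at 199, 205 and 220.2, overlapped control, with a difference of -0.17 ± 0.20 (adjusted p = 0.801). In HCC the values were 101, 129 and 85.0 (105 ± 22.2). Mvk fell by 1.07 ± 0.20 in HCC against control (adjusted p = 0.00234), and it fell by 0.90 ± 0.20 against cirrhosis (adjusted p = 0.00580). Hepatitis and HCC overlapped and did not differ past the threshold (HCC minus hepatitis -0.23 ± 0.20, adjusted p = 0.422).

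Mvk was also read by 2 dimmer probe sets, which were compared in a fit over all 31042 probe sets that are not array controls. 1387119_at read 42.7, 40.6 and 46.2 in control, 34.6, 48.3 and 35.6 in hepatitis, 61.1, 56.6 and 57.8 in cirrhosis and 25.0, 17.4 and 21.7 in HCC. It was lower in HCC than in cirrhosis on all arrays (adjusted p = 0.000118) and lower than in control (-0.67 ± 0.10, adjusted p = 0.00109), as the tested probe set was. Over all probe sets 2.95% passed in hepatitis, 3.62% in cirrhosis and 29.8% in HCC against control, 0.651% in cirrhosis against hepatitis, 32.2% in HCC against cirrhosis and 29.0% in HCC against hepatitis. It did not follow the tested probe set in hepatitis, where it differed from control by -0.10 ± 0.10 (adjusted p = 0.750), while the tested one, in the same fit, had an adjusted p of 0.0566. 1375401_at read 19.4 to 30.4 on all 12 arrays and passed in no comparison. The mean of the 3 Mvk probe sets differed from control in hepatitis by -0.34, with an adjusted p of 0.0524.

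Mvd, which makes isopentenyl diphosphate, read 202, 131 and 168 in control (167 ± 35.3) and 49.3, 84.9 and 45.9 in hepatitis (60.0 ± 21.6). The groups did not overlap, and Mvd fell by 1.28 ± 0.21 (adjusted p = 0.0118). Cirrhosis arrays lay between, at 95.4, 106 and 101, below all controls and above all hepatitis arrays (-0.63 ± 0.21 against control, adjusted p = 0.162; 0.65 ± 0.21 against hepatitis, adjusted p = 0.234). HCC arrays read 129.6, 171 and 107 (mean 136), above every cirrhosis array and overlapping control. Mvd was the 1 member higher in HCC than in hepatitis past the threshold, by 1.01 ± 0.21 (adjusted p = 0.00496), and its HCC minus control difference was -0.27 ± 0.21 (adjusted p = 0.357). Of the 7 genes it was the only one whose mean was higher in HCC than in cirrhosis, at 0.36 ± 0.21 (adjusted p = 0.217).

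Sqle, squalene epoxidase, read 409, 257 and 414 in control (360.0 ± 89.2) and 53.5, 160.4 and 59.8 in hepatitis (91.2 ± 60.0). The groups did not overlap, but with the spread of the 12 arrays the difference of -1.92 ± 0.49 had an adjusted p of 0.0647. Cirrhosis arrays at 248, 276 and 256 lay above all hepatitis arrays (1.50 ± 0.49, adjusted p = 0.234) and overlapped control. HCC was split, with 243 and 261 on replicates 1 and 2, near cirrhosis, and 61.4 on replicate 3, near hepatitis. The HCC minus control difference was -1.06 ± 0.49 (adjusted p = 0.119). Without HCC replicate 3 Sqle was higher in HCC than in hepatitis by 1.46 (adjusted p = 0.0160), against 0.86 ± 0.49 with it (adjusted p = 0.211).

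Tm7sf2, the C14 reductase, read 333, 336 and 380.2 in hepatitis (350 ± 26.5), against 875, 784 and 875 in control (844 ± 52.5). The groups did not overlap, and the difference of -1.24 ± 0.33 had an adjusted p of 0.0708 in the fit, which takes 1 spread from all 12 arrays. Cirrhosis arrays read 993, 1005 and 1111, above every control and every hepatitis array (0.29 ± 0.33 against control, adjusted p = 0.787). HCC arrays read 171, 445 and 133 (250 ± 170), with replicate 2 the high one. Tm7sf2 fell by 1.87 ± 0.33 in HCC against control (adjusted p = 0.00168), and it fell by 2.16 ± 0.33 against cirrhosis (adjusted p = 0.000765). Lbr, which carries the same reductase activity, was dim at 10.3 to 21.6 and differed from control by 0.02 in hepatitis, 0.19 in cirrhosis and -0.12 in HCC (SE 0.08 each), none past the threshold.

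Msmo1, the C4 methyl oxidase, had the widest spread in hepatitis. It read 1162, 785 and 1023 in control (990 ± 191) and 114, 558 and 129 in hepatitis (267 ± 252), with replicate 2 several times the other arrays and still below every control. The difference was -2.17 ± 0.66 (adjusted p = 0.110). Cirrhosis arrays were close to each other at 821, 795 and 809.6, above all hepatitis arrays and overlapping control (-0.27 ± 0.66, adjusted p = 0.934). HCC arrays read 371, 503 and 79.8 (318 ± 217), all below control. Msmo1 fell by 1.89 ± 0.66 in HCC against control (adjusted p = 0.0459). Its HCC minus cirrhosis difference was -1.62 ± 0.66 (adjusted p = 0.0815).

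Stard4, the sterol carrier, read 302, 262 and 285 in control (283 ± 19.9) and 97.9, 165 and 166 in hepatitis (143 ± 38.9). Here replicate 1, not 2, stood apart in hepatitis, and Stard4 fell by 0.94 ± 0.17 (adjusted p = 0.0156). Cirrhosis arrays at 197, 179 and 183 and HCC arrays at 152, 184 and 141 all lay below control. Stard4 fell by 0.78 ± 0.17 in HCC against control (adjusted p = 0.00527), and the cirrhosis difference was -0.56 ± 0.17 (adjusted p = 0.119). HCC and cirrhosis overlapped (-0.22 ± 0.17, adjusted p = 0.349).

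The 3 Stard4 probe sets had one direction in hepatitis and parted in HCC. In the fit over all probe sets, hepatitis minus control was -0.94, -0.58 (adjusted p = 0.0175) and -0.79 (adjusted p = 0.0975) for 1392516_a_at, the tested one (adjusted p = 0.0187), 1386279_at and 1396521_at. 1396521_at read 41.1, 58.3 and 32.9 in HCC against 124, 101 and 98.2 in cirrhosis, and fell by 1.06 ± 0.22 between them (adjusted p = 0.00493). 1386279_at read 41.7, 60.3 and 53.0 in HCC against 43.2, 46.9 and 45.7 in cirrhosis (0.13 ± 0.10, adjusted p = 0.361). The probe sets of 1 gene therefore gave different answers on HCC against cirrhosis.

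**Figure D2:**
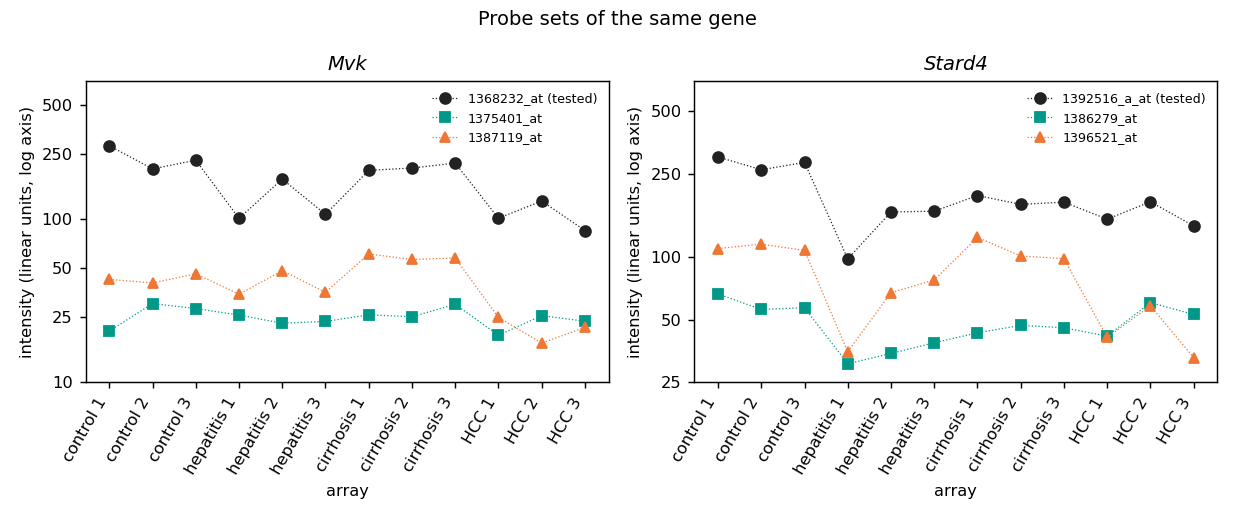
Intensity (linear units on a log axis) of the 3 probe sets of Mvk and the 3 of Stard4 on each of the 12 arrays, with dotted lines that only join points of 1 probe set. All 3 Stard4 probe sets are low on hepatitis replicate 1. Among them 1396521_at alone has every HCC array below every cirrhosis array, at 32.9 to 58.3 in HCC and 98.2 to 124 in cirrhosis.

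Counted over the genes, 4 of 7 passed the threshold in hepatitis against control, all lower (Mvd, Stard4, Srebf2 and Mvk), where 2.12% of all 14217 genes were lower and 1.87% higher past it. The median difference of the 7 was -1.24, where that of all genes was near 0. In all 7 the hepatitis arrays lay below the controls without overlap, which held for 15.6% of all genes, with 15.1% apart upward. Markers of other cells differed in the same samples. The T, NK and B cell list mean was 5.72 to 6.02 in hepatitis against 5.20 to 5.40 in control, with 2 of 10 genes higher past the threshold, Jchain by 2.05 (adjusted p = 0.0183) and Mzb1 by 0.83 (adjusted p = 0.0118), both plasma cell genes. Of 10 stellate cell genes 1 was higher, the pericyte gene Rgs5 by 1.75 (adjusted p = 0.00783), and their part in the result was not tested. The other sterol list counted for comparison had 0 of 14 past the threshold in limma. By unadjusted p 9 were under 0.05, the largest of them (limma, 0.0296, Fdps) at rank 1922 among all 14217 genes. The count of 4 of the 7 rested on single arrays. It was 0 without control replicate 1 and 7 without HCC replicate 3, settings in which the count over all genes was 204 and 837 against 568. Mvk and Srebf2 missed the threshold without any 1 of the controls, hepatitis replicates 1 or 3 or the cirrhosis arrays, with an adjusted p of 0.0745 to 0.184 for Mvk and 0.0570 to 0.132 for Srebf2. Mvd missed it without control replicate 1 (0.0545) or hepatitis replicate 1 (0.0530), and Stard4 without control replicate 1 (0.0719) or 2 (0.0534). Sqle passed without hepatitis replicate 2 (0.0383) or HCC replicate 1 (0.0469), 2 (0.0428) or 3 (0.0142), Msmo1 without hepatitis replicate 2 (0.0372) or HCC replicate 3 (0.0364), and Tm7sf2 without HCC replicate 2 (0.000280) or 3 (0.0316). Fitted on the 9 arrays outside HCC, a setting chosen after seeing the data, 7 of 7 passed, all lower, with adjusted p from 0.000115 (Tm7sf2) to 0.0254 (Msmo1), where 14.9% of all genes passed.

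In cirrhosis against control 0 of 7 passed in limma, where 1.79% of all genes were lower past the threshold and 1.54% higher. By unadjusted p 2 were under 0.05, Stard4 (limma, 0.00779) and Mvd (0.0145), at ranks 930 and 1278 among 14217 genes. The median difference of the 7 was -0.29. Arrays of Mvd, Srebf2 and Stard4 lay below all controls and those of Tm7sf2 above them, which held for 19.3% and 18.1% of all genes. Stard4 passed without hepatitis replicate 1 (adjusted p = 0.0196), and Tm7sf2 passed as higher without the HCC arrays (0.29 ± 0.08, adjusted p = 0.0424), where 12.3% of all genes passed.

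Between cirrhosis and hepatitis all 7 genes were higher in cirrhosis, with no overlap between arrays in any of them. Such separation held upward for 13.1% and downward for 13.7% of all genes. None passed the threshold in limma, where 0.394% of all genes passed as higher and 0.563% as lower. All 7 had an unadjusted p under 0.05, a looser cut that those shares do not describe. The largest of these 7 (limma, 0.0467, Stard4) ranked 1558 by p among 14217 genes. The lowest adjusted p was 0.0674, for Tm7sf2 at 1.53 ± 0.33. It passed without HCC replicate 2 (0.000357) or 3 (0.0344), and Mvk, at 0.68 ± 0.20 with all arrays, passed without hepatitis replicate 2 (0.0330). Without the HCC arrays Tm7sf2 (adjusted p = 0.000211) and Sqle (adjusted p = 0.0421) passed, where 5.86% of all genes did.

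In HCC against control 4 of 7 passed, all lower (Tm7sf2, Mvk, Stard4 and Msmo1), where 18.7% of all genes were lower past the threshold and 20.0% higher. The median was -1.06, against 0.01 for all genes. This comparison shares its control arrays with the hepatitis one. In 5 of 7 the HCC arrays lay below all controls, as in 22.5% of all genes, with 24.1% apart upward. Msmo1 missed the threshold without control replicate 1 (adjusted p = 0.119), 2 (0.0779) or 3 (0.101), hepatitis replicate 3 (0.0526), cirrhosis replicate 1 (0.0650), 2 (0.0650) or 3 (0.0646), or HCC replicate 3 (0.136). Srebf2 passed without hepatitis replicate 1 (0.0486) or 2 (0.0223) or HCC replicate 1 (0.0178). Mvk, Tm7sf2 and Stard4 passed under each of the 21 other settings run, with adjusted p up to 0.0188, 0.0320 and 0.0324. The other Stard4 probe sets parted here, in the limma fit over all probe sets. 1386279_at overlapped control and did not pass (-0.17 ± 0.10, adjusted p = 0.249), while 1396521_at passed as lower (-1.10 ± 0.22, adjusted p = 0.00459). In the same samples 7 of 9 hepatocyte plasma protein genes and 4 of 8 macrophage genes were lower past the threshold than in control.

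Against cirrhosis, 2 of 7 were lower in HCC past the threshold (Tm7sf2 and Mvk), where 17.7% of all genes were lower and 19.4% higher. Arrays lay apart downward for Mvk, Tm7sf2 and Msmo1 (22.9% of all genes) and upward for Mvd (24.1%). Msmo1 passed too without hepatitis replicate 2 (adjusted p = 0.0392) or HCC replicate 2 (0.0340). Against hepatitis 1 of 7 passed, Mvd, which was higher, where 17.9% of all genes were higher and 17.1% lower. Its arrays alone of the 7 did not overlap, as in 20.9% of all genes upward and 19.8% downward. Sqle passed as higher without HCC replicate 3, as given with its values, and Srebf2 without hepatitis replicate 2 (0.54, adjusted p = 0.0309). Tm7sf2, at -0.64 ± 0.33 with all arrays (adjusted p = 0.162), passed as lower without HCC replicate 2 (-1.13, adjusted p = 5.37e-05). Of the group means, the order was control, cirrhosis, HCC and hepatitis for Sqle, Msmo1, Srebf2 and Stard4. HCC stood last for Mvk and Tm7sf2, and second, after control, for Mvd.

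**Figure D3:**
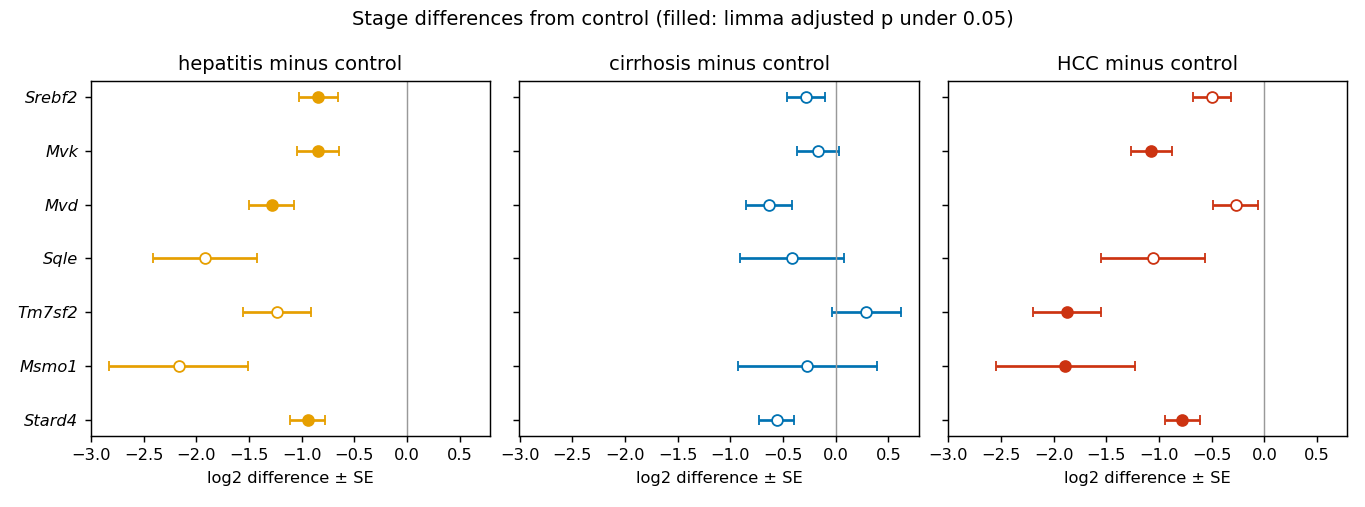
Difference from control in log2(intensity + 16), with its standard error, for each of the 7 genes at the hepatitis, cirrhosis and HCC stages (3 arrays per group, limma fit over all genes). Filled points passed an adjusted p of 0.05. All 7 points lie below 0 in hepatitis and in HCC, and in cirrhosis Tm7sf2 alone lies above 0 (0.29).

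The 7 genes also varied together among arrays of 1 group. Control replicate 2 was the lowest control for 7 of 7, hepatitis replicate 1 the lowest hepatitis array for 6, and HCC replicate 3 the lowest HCC array for 7. Hepatitis replicate 2 was the highest of its group for 5, all but Tm7sf2 and Stard4, and HCC replicate 2 for 6, all but Srebf2. Averaged over the 7 genes after centring each on its mean, hepatitis replicates 2 and 3 lay at -0.12 and -0.82 (log2), with replicate 1 lower than both, and HCC replicates 1 and 2 at -0.26 and 0.08, with replicate 3 again the lowest. Cirrhosis replicates lay at 0.35, 0.38 and 0.40, and controls at 0.84, 0.44 and 0.72. The genes share these arrays, so this is no count of independent observations. How many of all genes had the same order of arrays was not counted. Control replicate 2 was also the array with the high muscle actin Acta1, whose part was not tested. HCC replicate 3 had the largest 3' minus 5' difference of Gapdh (3.14) and the lowest hepatocyte plasma protein mean (11.92), and HCC replicate 2 the highest such mean of its group (12.85) and the lowest intensity of the tumour marker Afp (576, against 9199 and 7098). In hepatitis the plasma protein means were 13.02, 13.04 and 13.05 on replicates 1, 2 and 3. Hepatitis replicate 1, the lowest for 6 of the 7 genes, stood apart by other measures, at -7.32 on the first principal component against -20.8 and -19.8 on replicates 2 and 3. Its list means were 7.27 for cholangiocytes against 6.16 and 6.17, 7.97 for stellate cells against 7.38 and 7.50, and 7.12 for proliferation, where both others were lower (6.26 on replicate 3). Their part in the low values of that array was not tested.

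**Figure D4:**
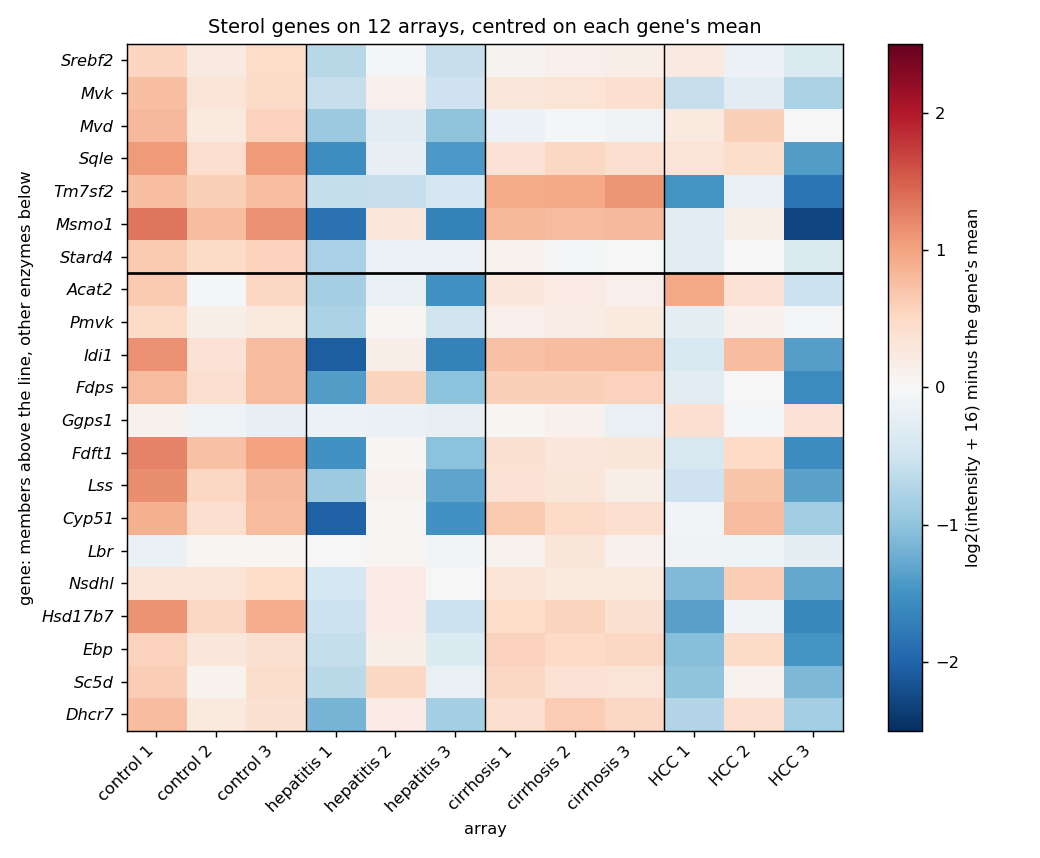
Colour shows log2(intensity + 16) minus the gene's mean over the 12 arrays, for the 7 genes (above the line) and 14 other sterol synthesis enzymes (below it), with arrays in columns by group. Hepatitis replicates 1 and 3 and HCC replicate 3 are blue for most genes, hepatitis replicate 2 and HCC replicate 2 are paler or red for most, and the dim genes Lbr and Ggps1 vary little.

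The rest of the pathway was read from lists drawn up by function. Of 17 other sterol synthesis enzymes 14 were measured. In hepatitis 13 of 14 were lower in mean than in control, with a median of -1.10, and 0 passed with all arrays in limma. Without the HCC arrays, a setting chosen after seeing the data, 8 of 14 passed as lower, where 14.9% of all genes passed in either direction. With all arrays the smallest adjusted p, 0.0770, was shared to 3 digits by squalene synthase Fdft1 at -1.82 ± 0.49 and phosphomevalonate kinase Pmvk at -0.70 ± 0.19. Their list mean was 8.77 on hepatitis replicate 2 and 7.70 and 7.86 on replicates 1 and 3, against 8.91 to 9.32 in control, the same split between arrays as in the 7 genes. In cirrhosis 0 of 14 passed in limma against control (1 at an unadjusted p under 0.05) and 0 against hepatitis (7), with all 14 higher in mean than in hepatitis and list means of 8.95 to 9.02.

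In HCC 3 of the 14 passed as lower against control, near the 18.7% of all genes that did. The ketosteroid reductase gene Hsd17b7 fell by 1.87 ± 0.36 (adjusted p = 0.00292), with a list median of -1.01. Fdft1 fell by 1.47 ± 0.49 (adjusted p = 0.0388) and the sterol desaturase gene Sc5d fell by 1.06 ± 0.35 (adjusted p = 0.0366). Against cirrhosis 4 fell, Hsd17b7, the sterol isomerase Ebp, Sc5d and the dim Lbr, where 17.7% of all genes were lower, and against hepatitis 1 rose, Ggps1, also dim, where 17.9% were higher. Ebp read 335, 1008 and 246 on HCC replicates 1, 2 and 3, so that replicate 2 lay within the 877 to 1076 of control. The list means were 8.21, 8.95 and 7.67 on these arrays.

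Of 13 genes of sterol sensing and SREBP control 10 were measured, and 0 passed in limma in hepatitis (4 at an unadjusted p under 0.05) and 0 in cirrhosis (2). Insig1, which holds SREBPs in the endoplasmic reticulum and is itself a target of SREBP2, read 647, 1635 and 1091 in hepatitis against 2587 to 2849 in control (-1.38 ± 0.54, adjusted p = 0.223). In HCC 5 of 10 fell and 1 rose, where 18.7% of all genes were lower and 20.0% higher. The related gene Insig2 fell by 2.51 ± 0.43 (adjusted p = 0.00164), at 82.8, 256 and 52.7 against 529 to 1054 in control. Insig1 fell by 1.56 ± 0.54 (adjusted p = 0.0448), and the liver X receptor gene Nr1h2 fell by 0.85 ± 0.10 (adjusted p = 0.000242). The site 2 protease gene Mbtps2, whose product frees SREBPs from the membrane, rose by 0.78 ± 0.15 (adjusted p = 0.00292).

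Of 12 genes of uptake and intracellular transport 8 were measured. None passed in hepatitis in limma (2 at an unadjusted p under 0.05), 1 fell in cirrhosis and 3 in HCC against control, where 1.79% and 18.7% of all genes were lower. The lipoprotein remnant receptor gene Lrp1 fell by 0.81 ± 0.16 in cirrhosis (adjusted p = 0.0291), and it fell by 1.98 ± 0.16 in HCC (adjusted p = 3.9e-05). In HCC the oxysterol binding protein gene Osbp fell by 1.16 ± 0.11 (adjusted p = 8.12e-05) and the HDL receptor gene Scarb1 fell by 1.35 ± 0.36 (adjusted p = 0.0138). In the list of esterification, export and bile acid entry, 1 of 10 measured genes fell in hepatitis, 1 in cirrhosis and 5 in HCC, beside 2.12%, 1.79% and 18.7% of all genes. In HCC the largest differences were -4.24 ± 0.34 for Cyp8b1 (adjusted p = 3.89e-05) and -4.12 ± 0.71 for Cyp7a1 (adjusted p = 0.00164). The sterol exporter gene Abcg5 (-1.96 ± 0.25, adjusted p = 0.000340) and Lcat (-1.87 ± 0.29, adjusted p = 0.000914) came next. Abcg5 was lower at each stage, and fell by 1.79 ± 0.25 in hepatitis (adjusted p = 0.00510). Its values were 37.6, 42.4 and 47.1 in hepatitis against 142 to 268 in control and 38.8 to 56.4 in cirrhosis, which overlapped hepatitis (0.09 ± 0.25, adjusted p = 0.984).

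Genes of fatty acid synthesis, which are mainly under the related factor SREBP1, are given for comparison. In hepatitis 6 of 10 fell, with a median of -2.06, where 2.12% of all genes were lower. The largest called differences were -2.40 (Me1), -2.39 (Pklr), -2.30 (Fasn) and -2.03 (Elovl6). In HCC against control 5 of 10 were lower and 0 higher past the threshold, where 18.7% of all genes were lower and 20.0% higher. The largest called differences there were -5.61 (Thrsp), -3.89 (Scd), -2.51 (Pklr) and -1.04 (Me1). In HCC 5 of 10 were higher than in hepatitis, among them fatty acid synthase Fasn by 2.20 ± 0.38 (adjusted p = 0.00168), where 1 of the 7 sterol genes was, and 1 was lower. Of all genes 17.9% were higher and 17.1% lower. The difference between the lists was not tested.

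By the root mean square difference from the mean centred profile of the 7 genes over the 12 arrays, the 5 nearest other genes were Dhcr7 (0.248, log2), Cebpa (0.291), Lss (0.294), Arhgef19 (0.308) and Fdps (0.310). Dhcr7, Lss and Fdps belong to the list of other sterol enzymes. Of the 7 genes themselves Mvk was nearest to the common profile, at 0.240, and Msmo1 farthest, at 0.607. The measure reflects the size of changes as well as their pattern, and the profile includes the 7 genes themselves. By it Msmo1 ranked 3434 and Tm7sf2 1860 among all genes. Dhcr7, the last reductase before cholesterol in one branch of the pathway, read 344, 917 and 440.2 in hepatitis, 1044 to 1245 in cirrhosis and 469, 1058 and 435 in HCC.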

How the data were processed

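RNA of 12 samples was measured, 3 arrays per group, and groups and replicate numbers were taken from the sample titles. The authors deposited 1 linear intensity per probe set and array. Per the submitters' processing notes MAS5 and RMA were named, with role, order and versions not given in the sources used here. All 12 columns of values were used. Of 31099 probe sets 57 were array controls, 20826 had 1 gene by the platform annotation, 436 several and 9780 none. The probe set with the highest mean stood for each of 14217 genes.

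Values were analysed as log2(intensity + 16), which understates fold changes of dim genes. Tests were 2-sided moderated tests (limma 3.58.1, lmFit and eBayes, R 4.3.3) on all 12 arrays, with 6 comparisons and Benjamini-Hochberg adjustment over all genes, called at 0.05. Shares of all genes past the threshold use the adjusted p. No share of all genes was counted for an unadjusted p under 0.05, so counts at that cut have no background beside them. The fit was tested on simulated data. Promoter motifs were searched with Python 3.11.15. The 7 genes and all lists were chosen with earlier results of these data known, so no list was tested as such and no p was adjusted over a list. All 7 genes are named. From the pathway lists up to 4 called genes are named by size, but not in every comparison. Among the 5 fatty acid genes higher in HCC than in hepatitis, Fasn alone is named. Others (Insig1 in hepatitis, Dhcr7, Lbr, Pmvk and array values of Ebp) were chosen after their values were seen. Alternatives covered the added constant (1 or 64), a filter on the dimmest 30% of genes, the choice of probe set, quantile normalization, array weights, the arrays fitted, a block on the replicate number and leaving out each array.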

Additional observations from a re-analysis of the deposited data

Results flagged for a closer look

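In 3 cases a test of the difference between stages passed, so that the difference from control was not the same at both stages. Mvk was lower in HCC than in cirrhosis (-0.90, log2, limma adjusted p = 0.00580), with 3 of 3 HCC arrays below every cirrhosis array. Tm7sf2 was lower in HCC than in cirrhosis (-2.16, adjusted p = 0.000765), likewise on 3 of 3 arrays. Mvd was higher in HCC than in hepatitis (1.01, adjusted p = 0.00496), with 3 of 3 HCC arrays above every hepatitis array. Mvd missed the threshold with array weights (adjusted p = 0.0666). Such results were common. In HCC against cirrhosis 17.7% of all genes were lower past the threshold and 19.4% higher, and 22.9% lay apart downward. In HCC against hepatitis 17.9% were higher past it and 17.1% lower, and 20.9% lay apart upward.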

How the results depend on the processing

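Of 903 values of single members under other settings, 812 kept their direction and side of the threshold, 40 lost a call, 45 gained one and 6 turned sign, all of the last for differences that passed under neither setting. These were Mvk in cirrhosis against control with the mean of probe sets (0.063), and in HCC against hepatitis Msmo1 with array weights (-0.080), without hepatitis replicate 1 (-0.11) or 3 (-0.03) or HCC replicate 2 (-0.20, the lowest of a range up to 1.02 with 1 array left out), and Stard4 without hepatitis replicate 1 (-0.058, of a range up to 0.28). The replicate numbers did not pair the samples. Of 18 pairs with the same number 3 had a correlation of deviations over 0.1, and an array correlated best with its own number in 14 of 36 cases. With the replicate block 2 of 7 genes passed in hepatitis against control, against 4 without it, while 521 genes in all passed there against 568, and 310 and 75 genes in all passed in cirrhosis against control and against hepatitis. The number of members past the threshold in hepatitis was 7 with array weights and 7 without the HCC arrays. In cirrhosis against control it was 3 with only the groups compared, 2 with array weights and 1 without the HCC arrays, against 0. In cirrhosis against hepatitis it was 1 with the dimmest genes left out, 1 with only the groups compared, 3 with array weights and 2 without the HCC arrays, against 0. In HCC against hepatitis it was 2 with the mean of probe sets and 0 with array weights, against 1. Leaving out 1 array gave 0 to 7 in hepatitis, 0 to 1 in cirrhosis and 3 to 5 in HCC against control, 0 to 1 in cirrhosis against hepatitis, 2 to 3 in HCC against cirrhosis and 1 to 2 in HCC against hepatitis. Counts of all genes were 568 in hepatitis against control (916 over all probe sets, 896 with only the groups compared, 2159 with array weights, 2120 without the HCC arrays, 180 to 1078 with 1 array left out). They were 474 in cirrhosis against control (1125, 2682, 3080, 1748, and 98 to 883). Cirrhosis against hepatitis gave 136 (457 with only the groups compared, 966 with array weights, 833 without the HCC arrays, 39 to 333 with 1 array left out). HCC gave 5512 against control (9237 over all probe sets, 3210 with only the groups compared, 4195 to 6338 with 1 array left out), 5278 against cirrhosis (10008, 3507, 4129 to 6190) and 4972 against hepatitis (8990, 2390, 3891 to 5866). Over all probe sets more features were tested, and the cause of the other changes was not tested. Intensities near background, as for Lbr and the second Srebf2 probe set, limit what can be seen there.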
